A study of Mus musculus with 60 samples.

Results

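The genes described are 40 genes of DNA synthesis and mitosis, chosen by name, and all 40 were found among the 35976 gene symbols of the deposited count table. They fall into 6 cyclins and Cdk1, 10 replication genes, 10 mitotic kinases and checkpoint genes, 12 genes of the spindle, kinetochore and cytokinesis, and 2 chromosome genes. RNA came from the hippocampus of NLGF mice (AppNL-G-F, labelled APP-nlgf) and of wild-type (WT) mice at weeks 3, 8 and 24. The NLGF line is an App knock-in with familial Alzheimer's disease mutations, in which App is expressed from its own mouse promoter. Each genotype and week holds 10 libraries, 5 labelled female and 5 labelled male, which gives 60 libraries in 6 sets. The submitters treat the libraries as biological replicates. The labels do not say whether each came from its own animal, and the p-values cover only the spread among the libraries, which may be technical.

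A dividing cell copies its DNA in S phase and separates the copies in mitosis. Cyclins switch on the cyclin-dependent kinases that drive both steps, the MCM helicase opens the DNA for copying, and kinesins and kinetochore proteins move the chromosomes. Transcripts of most of these genes build up only in cells that are cycling. In the hippocampus such cells are mainly oligodendrocyte precursors, progenitors of the dentate gyrus that give rise to granule neurons, and, after birth or in disease, microglia and endothelial cells.

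Library totals lay between about 17786600 and 35162100 counts in 53 libraries and between about 54026900 and 73423300 counts in 7 deep NLGF libraries of week 3, females 1, 4 and 5 and males 2 to 5. No WT library was that deep, so comparisons that use NLGF week 3 are given with and without these 7. The sex label matched the counts of Xist and Ddx3y in 59 libraries and conflicted with them in the library labelled NLGF week 3 male 2. NLGF week 8 female 1 carries an age field of 3 weeks beside a title of week 8 and was kept with week 8. The counts of App cannot show the edited bases and so do not check the genotype. As a check of the tissue, the 12 markers of hippocampal neurons summed to between 3659 and 5274 CPM in every library. The 8 choroid plexus markers, of a neighbouring tissue, summed to between 33.7 and 11048 CPM. In NLGF week 3, the library labelled male 2 and female 1 held 10364 and 10712 CPM of these, against at most 2531 CPM in the others. Their blood markers summed to 679 and 768 CPM, against at most 533 CPM. Single genes could differ more, such as Ttk at 0.327 and 0.680 CPM. Whether these 2 libraries share an animal was not tested.

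Levels are CPM, the counts of a gene scaled to a common library total. Divided by the exon length of each gene in GENCODE vM21, levels of the 40 genes in WT week 3 differed widely. Ccnd2, a D-type cyclin that links growth signals to the cell cycle, was the highest at 18 ± 3.35 CPM per kb (SD, n = 10). Pcna, the sliding clamp of DNA polymerase, followed at 11.9 ± 1.66 CPM per kb, and Ccnd1, another D-type cyclin, at 8.44 ± 0.501 CPM per kb. Mki67, the proliferation antigen Ki-67 that coats mitotic chromosomes, stood at 0.933 CPM per kb. Ndc80, a kinetochore protein that binds microtubules, was the lowest at 0.0656 ± 0.0214 CPM per kb, next to Bub1, a spindle checkpoint kinase, at 0.0934 ± 0.0553 CPM per kb. These low genes rest on few reads. Bub1 had a count of 0 in 1 WT week 8 library, which allows up to 0.106 CPM, and Ndc80 had a count of 0 in 1 WT week 24 library, which allows up to 0.132 CPM (3 counts in that library).

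**Figure D1:**
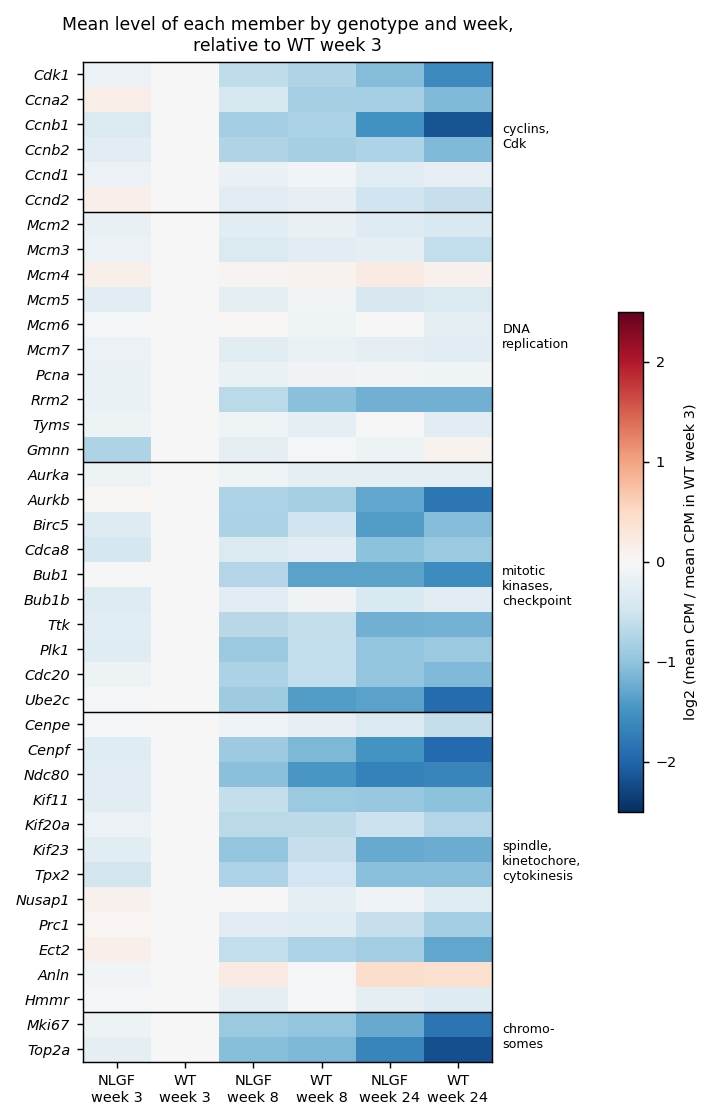
Mean CPM of each of the 40 genes in the 6 sets of 10 libraries, on a log2 scale relative to WT week 3 (white column). Blue cells are below WT week 3: most mitotic genes deepen from week 3 to week 24 in both genotypes, while Mcm4, Pcna and Anln do not.

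The first comparison asked how the genes changed with age in WT hippocampus. At week 24, 25 of the 37 tested genes were lower than at week 3 and 1, Anln, was higher (edgeR quasi-likelihood test, Benjamini-Hochberg adjusted p under 0.05 over 16844 genes). Over all genes tested, 11.3% were called lower and 10.6% higher in this comparison. The median log2 fold change was -0.84 over the 37 genes and 0.01 over all genes. Bub1, Ube2c and Ndc80 were too low to be tested. Cdk1, Ccnb1, Ccnb2, Aurkb, Birc5, Ttk and Kif23, all called lower, were too low for the comparison of genotypes at week 24. They passed the filter here mainly through younger libraries, which leaves little room for any call but lower. Such genes carry the same limit in the age comparisons below. With at least 1 CPM asked in at least 10 libraries, 16 of 26 tested genes were lower and 1 higher. In bulk tissue, fewer cells of a type and less RNA per cell cannot be told apart.

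Both chromosome genes fell. Top2a, the topoisomerase that untangles replicated DNA, had 0.802, 1.35 and 1.68 CPM (lowest, median and highest library) at week 24, against 4.18, 5.71 and 7.28 CPM at week 3. All 10 libraries of week 24 lay below all 10 of week 3. The log2 fold change, -2.19 ± 0.16 (SE; adjusted p = 1.01e-11), was the largest of the 37. Mki67 had 1.96, 2.67 and 3.18 CPM at week 24, against 6.54, 9.65 and 12.3 CPM at week 3, again without overlap (log2 fold change -1.83 ± 0.15, adjusted p = 1.24e-10). The fall of these genes ran over both intervals. Top2a averaged 5.79, 2.66 and 1.26 CPM and Mki67 9.38, 4.76 and 2.63 CPM at weeks 3, 8 and 24.

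Among the cyclins and Cdk1, 5 of 6 fell. Ccnb1, the B-type cyclin that activates Cdk1 at the entry to mitosis, had 0.0405, 0.170 and 0.411 CPM at week 24, against 0.455, 0.939 and 1.3 CPM at week 3. The groups did not overlap (log2 fold change -2.12 ± 0.29, adjusted p = 1.86e-06), though the lowest WT week 24 library held a count of 1. Cdk1, the mitotic kinase itself, fell by 1.55 on the log2 scale (SE 0.33, adjusted p = 0.00076). Ccna2 and Ccnb2, cyclins of S phase and mitosis, fell by 1.10 and 1.07 on the same scale. Ccnd2 averaged 113 ± 19 CPM at week 24 and 169 ± 31.5 CPM at week 3 (SD, n = 10 each; log2 fold change -0.58 ± 0.11, adjusted p = 0.000151). Ccnd1 averaged 34.6 ± 4.85 CPM at week 24 and 39.8 ± 2.36 CPM at week 3 and did not pass the test (log2 fold change -0.20 ± 0.08, adjusted p = 0.0841).

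The replication genes changed least. Of 10 tested, 5 fell, and their median log2 fold change was -0.29. Rrm2, the ribonucleotide reductase subunit that supplies DNA precursors, had 0.968, 1.31 and 1.53 CPM at week 24, against 2.15, 2.67 and 4.05 CPM at week 3 (log2 fold change -1.19 ± 0.15, adjusted p = 4.13e-07). Its libraries of the 2 weeks did not overlap. Of the 6 subunits of the MCM helicase, Mcm3, Mcm2, Mcm5 and Mcm7 fell, by 0.61, 0.38, 0.36 and 0.29 on the log2 scale. Mcm4 and Mcm6 did not pass the test, and their fold changes had opposite signs: Mcm4 averaged 10.6 ± 0.879 CPM at week 24 and 9.81 ± 1.39 CPM at week 3, and Mcm6 averaged 12.5 ± 2.80 CPM at week 24 and 14.8 ± 2.89 CPM at week 3. Nor did Pcna, at 26.4 ± 1.55 CPM at week 24 and 28.5 ± 3.99 CPM at week 3 (adjusted p = 0.374). Gmnn, geminin, which blocks a further round of origin licensing, had a log2 fold change of 0.10 ± 0.16 (adjusted p = 0.707), and Tyms, thymidylate synthase, one of -0.30.

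Among the mitotic kinases and checkpoint genes, 6 of 8 tested fell. Aurkb, the kinase of the chromosomal passenger complex, had 0.044, 0.137 and 0.392 CPM at week 24, against 0.269, 0.637 and 0.946 CPM at week 3 (log2 fold change -1.80 ± 0.31, adjusted p = 6.77e-05). The 2 ranges overlapped. Its partners Birc5 (survivin) and Cdca8 (borealin) fell by 1.06 and 0.93 on the log2 scale, Ttk, a spindle checkpoint kinase, by 1.15, Cdc20, which activates the anaphase-promoting complex, by 1.10, and Plk1, polo-like kinase, by 0.93. Aurka, the kinase of the spindle poles, and Bub1b, a checkpoint protein, did not pass the test, at log2 fold changes of -0.25 ± 0.17 and -0.29 ± 0.18.

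Of 11 tested genes of the spindle, kinetochore and cytokinesis, 7 fell and 1 rose. Cenpf, a kinetochore protein, had 0.573, 1.20 and 1.57 CPM at week 24, against 3.52, 4.24 and 6.69 CPM at week 3, without overlap (log2 fold change -1.94 ± 0.18, adjusted p = 1.50e-09). Ect2, Kif23 and Prc1, which position and build the division furrow and midzone, fell by 1.31, 1.21 and 0.84 on the log2 scale. Kif11, the kinesin that pushes spindle poles apart, fell by 1.03, Tpx2, a spindle assembly factor, by 1.04, and Cenpe, a kinetochore motor, by 0.60. Kif20a, Nusap1 and Hmmr did not pass the test. Anln, anillin, a scaffold of the division furrow that oligodendrocytes also keep in myelin, had 29.9, 35.6 and 49.5 CPM at week 24, against 19.8, 28.0 and 45.1 CPM at week 3. The libraries overlapped, and the rise was 0.40 ± 0.13 on the log2 scale (adjusted p = 0.0283). The call was lost in 6 of the 30 fits that left out 1 library, WT week 24 female 2, 3 or 5 or week 3 female 2 or 5 or male 3, with adjusted p of up to 0.0645. In all, 10 of the 37 genes were lower in all 10 week 24 libraries than in all 10 week 3 libraries: Ccnb1, Cdc20, Cenpf, Ect2, Mki67, Plk1, Prc1, Rrm2, Top2a and Tpx2. The share over all genes tested was 1.92%.

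**Figure D2:**
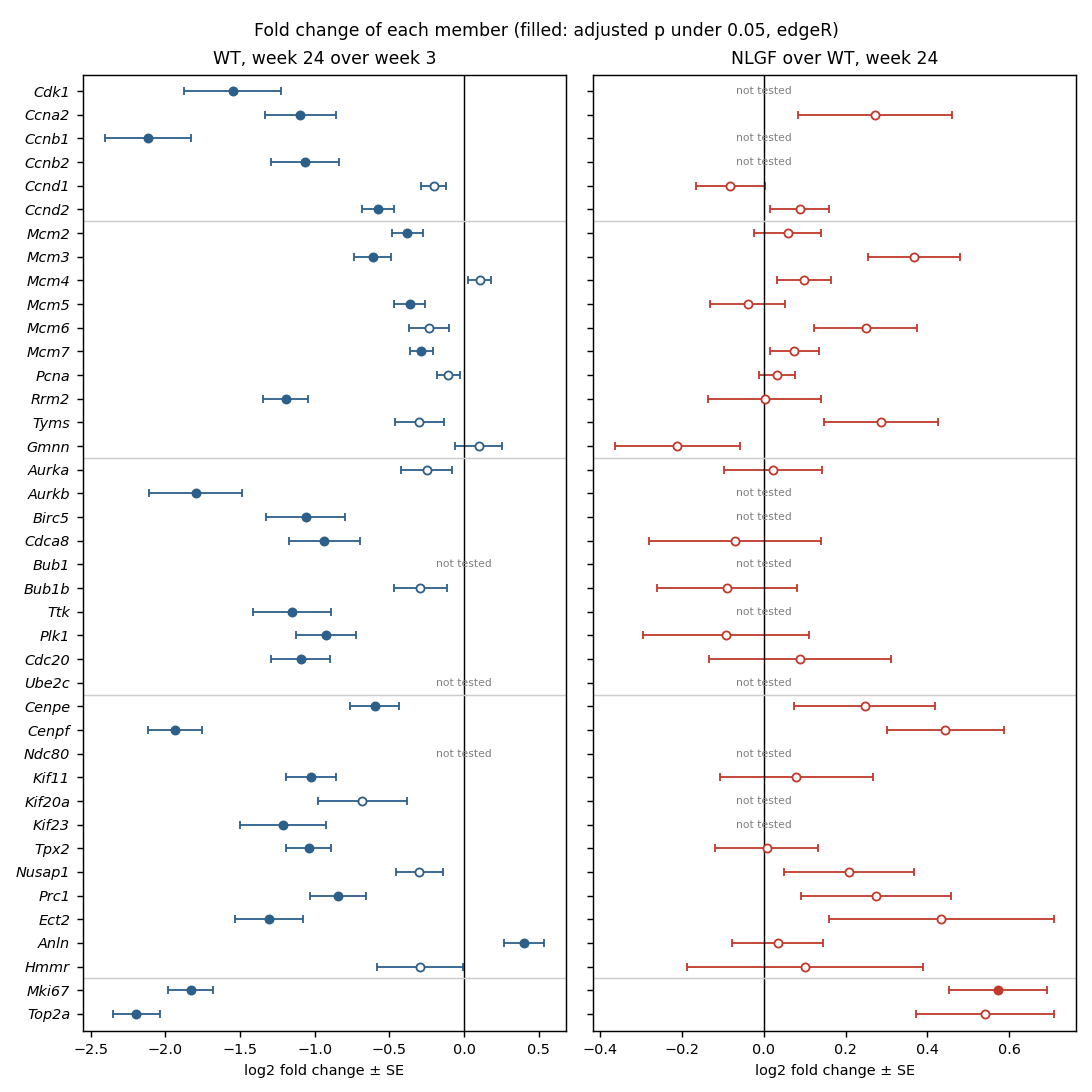
Log2 fold change of each gene with its standard error, in the order of the roles, for WT week 24 over week 3 (left) and for NLGF over WT at week 24 (right; the 2 axes differ in range). Filled points passed the test: on the left 25 points below 0 and Anln above it, on the right Mki67 at 0.57.

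The age effect was split by interval. From week 3 to week 8, 11 of 37 genes fell and 0 rose, where 4.51% of all genes were called lower and 2.63% higher. These were Top2a, Rrm2, Mki67, Cenpf, Kif11, Ccnb2, Ect2, Ccna2, Cdc20, Tpx2 and Plk1, and Rrm2 was the 1 whose libraries did not overlap, against 0.374% of all genes in that direction. The calls were not equally firm. Plk1 (adjusted p = 0.0466) lost its call in 21 of the 30 fits that left out 1 library, Cdc20 in 15 and Tpx2 in 11, with adjusted p of up to 0.0982. Plk1 also lost it in 4 of 6 other alternatives. Ccna2 lost its call in 3 fits and Ccnb2 and Ect2 in 1 each, while Top2a, Rrm2, Mki67, Cenpf and Kif11 kept theirs in all 30. Rrm2 averaged 2.86, 1.38 and 1.25 CPM at weeks 3, 8 and 24, with a log2 fold change of -1.04 ± 0.15 over the first interval (adjusted p = 1.32e-05) and of -0.15 ± 0.15 over the second (adjusted p = 0.732). Kif11 had the same shape, with log2 fold changes of -0.94 ± 0.17 (adjusted p = 0.000305) and -0.09 ± 0.17 (adjusted p = 0.879). From week 8 to week 24, 4 of 37 genes fell, Top2a, Mki67, Cenpf and Ccnb1, and 0 rose, where 0.243% of all genes were called lower and 0.0356% higher. Top2a had 0.802, 1.35 and 1.68 CPM at week 24, against 1.90, 2.34 and 4.24 CPM at week 8 (log2 fold change -1.07 ± 0.16, adjusted p = 0.00297). It was the 1 gene without overlap, against 0.0356% of all genes. Mki67 followed with -0.85 ± 0.15 (adjusted p = 0.00762), Cenpf with -0.82 ± 0.18 (adjusted p = 0.0387) and Ccnb1 with -1.33 ± 0.30 (adjusted p = 0.0441). The calls of Cenpf and Ccnb1 were lost in 10 and 14 of the 30 fits that left out 1 library, with adjusted p of up to 0.0846 (without WT week 8 male 5) and 0.0993 (without WT week 8 female 1).

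**Figure D3:**
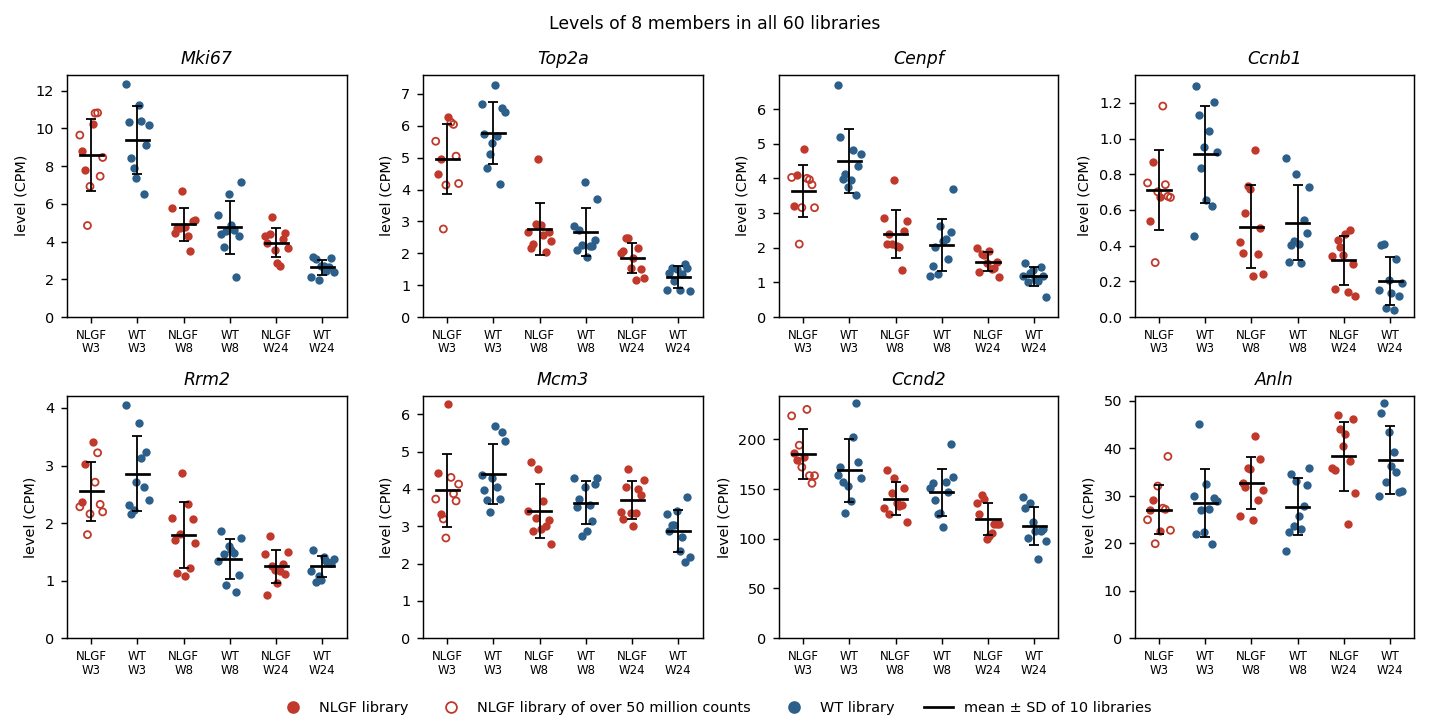
CPM of 8 genes in each of the 60 libraries (points), with the mean and SD of each set of 10 (bars), NLGF left of WT in each week. Open points are the 7 deep NLGF libraries: Mki67 and Top2a step down at each week, Rrm2 levels off after week 8 in WT, and Anln is highest at week 24.

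The promoters of the genes were compared with those of other genes as a feature of sequence that the choice of genes did not use. RefSeq promoter windows of GRCm38.p6, 250 bases before to 50 after the start site, were matched by symbol for 32 of the 40 genes. Each was searched on both strands for the cell cycle homology region (CHR; TTTGAA or TTCGAA), the box CCAAT, and an E2F site (TTTCCCGC, TTTGGCGC, TTTCGCGC or TTTGCCGC). As background, CHR elements are bound by the DREAM and MuvB complexes, CCAAT boxes by NF-Y and E2F sites by E2F factors. The windows of 8 genes are shown: for each role the 1 or 2 genes with the largest fall in WT among those with a window, and Anln, the gene that rose. Aurkb, which fell further than Ttk, was not matched to a window. The windows are chr13:100786437-100786736 (minus strand) for Ccnb1, chr12:24708004-24708303 (plus) for Rrm2, chr1:20820263-20820562 (minus) for Mcm3 and chr9:83834439-83834738 (plus) for Ttk. They are chr1:189688037-189688336 (minus) for Cenpf, chr11:99024140-99024439 (minus) for Top2a, chr7:135716330-135716629 (minus) for Mki67 and chr9:22389157-22389456 (minus) for Anln. Capitals mark CHR, CCAAT and E2F letters on either strand, so that a CCAAT box on the other strand reads ATTGG and a CHR reads TTCAAA.
Ccnb1: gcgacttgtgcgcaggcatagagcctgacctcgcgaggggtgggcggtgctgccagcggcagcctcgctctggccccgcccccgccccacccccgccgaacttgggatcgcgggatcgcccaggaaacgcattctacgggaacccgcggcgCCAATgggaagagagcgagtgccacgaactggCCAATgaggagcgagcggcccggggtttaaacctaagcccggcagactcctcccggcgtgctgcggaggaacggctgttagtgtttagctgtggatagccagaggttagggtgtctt
Rrm2: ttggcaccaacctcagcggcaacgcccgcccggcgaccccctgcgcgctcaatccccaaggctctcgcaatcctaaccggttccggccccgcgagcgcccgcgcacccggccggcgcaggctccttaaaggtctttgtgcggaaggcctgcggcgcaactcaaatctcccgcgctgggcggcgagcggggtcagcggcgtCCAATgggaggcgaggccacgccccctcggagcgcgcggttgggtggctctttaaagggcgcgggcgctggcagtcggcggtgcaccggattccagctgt
Mcm3: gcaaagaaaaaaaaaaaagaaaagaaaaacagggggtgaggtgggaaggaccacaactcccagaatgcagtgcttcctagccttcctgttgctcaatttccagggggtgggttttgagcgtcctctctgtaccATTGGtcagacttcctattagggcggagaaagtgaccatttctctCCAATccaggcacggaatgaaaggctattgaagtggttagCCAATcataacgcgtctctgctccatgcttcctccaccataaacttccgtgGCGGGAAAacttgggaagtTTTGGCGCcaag
Ttk: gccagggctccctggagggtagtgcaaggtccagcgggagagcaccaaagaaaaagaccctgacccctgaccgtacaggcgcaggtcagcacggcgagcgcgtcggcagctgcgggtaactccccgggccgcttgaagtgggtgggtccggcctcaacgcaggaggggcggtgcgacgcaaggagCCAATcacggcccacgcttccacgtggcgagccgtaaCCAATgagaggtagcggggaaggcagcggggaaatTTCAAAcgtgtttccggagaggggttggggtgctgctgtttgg
Cenpf: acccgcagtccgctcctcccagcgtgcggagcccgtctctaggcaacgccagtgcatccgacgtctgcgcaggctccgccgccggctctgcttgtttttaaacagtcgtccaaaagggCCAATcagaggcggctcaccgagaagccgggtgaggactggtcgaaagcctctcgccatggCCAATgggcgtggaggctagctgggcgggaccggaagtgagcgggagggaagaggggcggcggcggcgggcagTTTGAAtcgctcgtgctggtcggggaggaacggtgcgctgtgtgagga
Top2a: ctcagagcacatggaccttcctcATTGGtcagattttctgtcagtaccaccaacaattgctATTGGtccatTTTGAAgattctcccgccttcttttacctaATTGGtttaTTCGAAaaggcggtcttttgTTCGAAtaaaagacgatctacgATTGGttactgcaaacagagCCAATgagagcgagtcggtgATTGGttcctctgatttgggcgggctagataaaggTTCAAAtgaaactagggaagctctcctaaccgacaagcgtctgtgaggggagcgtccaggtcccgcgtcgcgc
Mki67: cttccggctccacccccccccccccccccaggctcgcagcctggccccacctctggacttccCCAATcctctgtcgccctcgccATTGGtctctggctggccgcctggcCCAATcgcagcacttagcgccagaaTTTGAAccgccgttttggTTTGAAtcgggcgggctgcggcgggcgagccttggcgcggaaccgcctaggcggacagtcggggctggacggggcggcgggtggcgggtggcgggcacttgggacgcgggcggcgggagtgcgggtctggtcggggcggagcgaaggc
Anln: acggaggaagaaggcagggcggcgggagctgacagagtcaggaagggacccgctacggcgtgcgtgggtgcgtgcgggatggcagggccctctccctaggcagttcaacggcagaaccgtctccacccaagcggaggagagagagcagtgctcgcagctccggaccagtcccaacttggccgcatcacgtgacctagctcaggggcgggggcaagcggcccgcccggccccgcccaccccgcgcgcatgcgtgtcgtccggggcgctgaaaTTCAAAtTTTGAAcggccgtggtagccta

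A CHR was present in 22 of the 32 windows (68.8%), against 19.4% of the windows of all 27025 gene symbols with one. It was in 8 of 9 windows of mitotic kinases and checkpoint genes and 8 of 10 of spindle genes, but in 2 of 8 of replication genes, Mcm2 and Mcm7. The window of Top2a holds 4 CHR matches, and those of Cenpf and Ttk hold 1 close to the start site. A CCAAT box was present in 27 of 32 windows (84.4%), against 37.9% of all windows. An E2F site was present in 5 windows (15.6%), against 2.32% of all, namely those of Cdk1, Mcm3, Mcm5, Mcm6 and Mcm7. Anln, which rose, holds CHR matches but no CCAAT box. Of the 21 genes with a window that fell in WT, 15 held a CHR and 20 a CCAAT box. Of the other 11 genes with a window, 7 held each. These 11 include Bub1, Ube2c and Ndc80, which were too low to be tested for the fall. Pairs of E2F matches overlapped each other in Mcm5 and Mcm6, as did CCAAT boxes in Ube2c. A CCAAT box shared a base with an E2F match in Mcm7 and with a CHR in Cdca8. These matches describe letters in these windows and say nothing of binding.

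**Figure D4:**
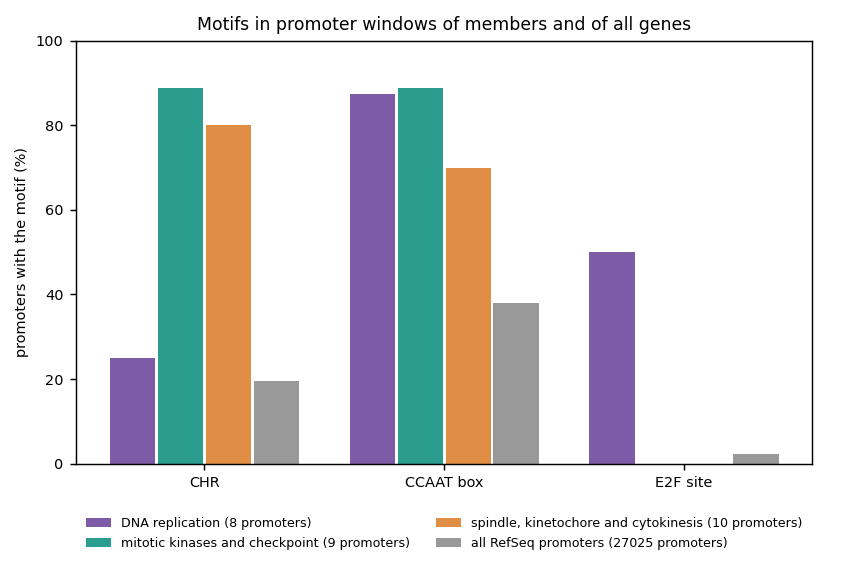
Percent of promoter windows that hold a CHR, a CCAAT box or an E2F site, for the 3 larger roles and for all 27025 RefSeq windows (grey). CHR is most frequent in the 2 mitotic roles (88.9% and 80.0%) and E2F sites in the replication genes (4 of 8), with 0 of the 9 and 0 of the 10 windows of the mitotic roles holding an E2F site.

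The age change was not limited to the 40. Of 56 other mitosis genes in the table, 46 were tested and 20 fell and 0 rose from week 3 to week 24 in WT, with a median log2 fold change of -0.34. Over all genes tested in this comparison, 11.3% were called lower and 10.6% higher. Some of these mitosis genes and of the replication genes below were too low for the comparison of genotypes at week 24. For those, as for the members named above, little room was left for any call but lower. Aspm, a spindle pole protein of neural progenitors, fell by 1.99 on the log2 scale (adjusted p = 1.66e-09), Pbk, a mitotic kinase, by 2.08, Ckap2, a spindle microtubule protein, by 1.64, and Ncaph, a condensin subunit, by 0.86. Of 49 tested other replication genes, 11 fell and 1 rose, with a median of -0.09. Uhrf1, which carries DNA methylation through replication, fell by 1.62 (adjusted p = 4.22e-07), Brca1, a repair factor, by 1.08, and Chaf1a, a chaperone of new histones, by 0.44. Tipin, of the replication fork protection complex, rose by 0.32 (adjusted p = 0.046). Of 33 tested regulators of the earlier G1 phase, 10 fell and 6 rose. Cdk6 and Cdk4, the kinase partners of the D-type cyclins, fell by 1.16 (adjusted p = 1.49e-10) and 0.46, and the inhibitors Cdkn2c and Cdkn1a by 0.95 and 0.90. Ccng1, a cyclin induced by p53, rose by 0.36 (adjusted p = 0.005), and Lin52 and Lin54, subunits of the DREAM complex, by 0.25 and 0.28.

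Markers of several, but not all, cell types moved in the same direction in WT between week 3 and week 24. All 12 oligodendrocyte precursor markers were tested and 11 fell, with sums of 436 to 539 CPM at week 24 and 665 to 1081 CPM at week 3. Of 11 immature neuron markers 7 fell, with sums of 413 to 531 CPM at week 24 and 567 to 717 CPM at week 3. Of 8 tested neural stem cell markers 5 fell, with sums of 152 to 184 CPM at week 24 and 185 to 247 CPM at week 3. Of 8 endothelial markers 5 fell, with sums of 172 to 211 CPM at week 24 and 186 to 273 CPM at week 3. All 5 tested blood markers fell as well, with sums of 56.3 to 186 CPM at week 24 and 152 to 549 CPM at week 3. Of 8 mural and meningeal markers 3 fell, with sums of 195 to 267 CPM at week 24 and 253 to 482 CPM at week 3. The 14 general microglia markers did not move this way: 6 rose and 1 fell, with sums of 376 to 450 CPM at week 24 and 334 to 415 CPM at week 3. A second list, 10 markers of plaque-associated microglia, had lower sums at week 24, with overlap. They were 120 to 168 CPM (mean 150) at week 24 and 146 to 205 CPM (mean 174) at week 3. Of 12 markers of hippocampal neurons 2 rose and 0 fell. None of the oligodendrocyte precursor, immature neuron and endothelial markers was at 0 in any library of these sets. Of the stem cell markers, Tfap2c was at 0 in 6 and Eomes in 1 of the 10 WT week 24 libraries. The part of these markers in the fall of the 40 genes was not tested.

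The second comparison asked whether the genotypes differ at each week. At week 24, when amyloid plaques are present in this line, 1 of 29 tested genes was higher in NLGF and 0 were lower, where 0.8% of all genes were called higher and 0.0787% lower. That gene was Mki67, with 2.71, 4.0 and 5.28 CPM in NLGF libraries, against 1.96, 2.67 and 3.18 CPM in WT libraries. Of the 10 NLGF libraries, 8 lay above the highest WT library, and all 10 lay above the WT median. The log2 fold change was 0.57 ± 0.12 (SE, adjusted p = 0.0157). Among females the 5 NLGF libraries held 3.54 to 5.28 CPM and the 5 WT libraries 1.96 to 3.18 CPM, without overlap. Among males the NLGF libraries held 2.71 to 4.46 CPM and the WT libraries 2.41 to 3.10 CPM, with overlap. The authors' deposited table also lists Mki67 at week 24, with a log2 fold change of 0.45 (adjusted p = 0.0147), and lists no other of the 40 genes at that week. That fold change comes from the authors' own fit, and its size need not match the one given here. Mki67 passed the test in every fit that left out 1 of the 20 libraries, with adjusted p between 0.0049 and 0.0439, and in the 7 other alternatives. With a replicate block the edgeR adjusted p was 0.0496, close to the threshold.

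The genes nearest to Mki67 in this comparison did not pass the adjusted threshold. Top2a had 1.17, 1.94 and 2.49 CPM in NLGF, against 0.802, 1.35 and 1.68 CPM in WT, and 6 of 10 NLGF libraries lay above the highest WT library (log2 fold change 0.54 ± 0.17, unadjusted p = 0.00436, adjusted p = 0.233 in edgeR's test). Cenpf had 1.15, 1.57 and 1.98 CPM in NLGF, against 0.573, 1.20 and 1.57 CPM in WT (log2 fold change 0.44 ± 0.14, adjusted p = 0.255). Mcm3 had 3.02, 3.61 and 4.54 CPM in NLGF, against 2.04, 2.94 and 3.78 CPM in WT (log2 fold change 0.37 ± 0.11, adjusted p = 0.202). These were the other genes below an unadjusted p of 0.05, which 8.99% of all genes reached. The fold change was positive for 23 of the 29 genes, with a median of 0.09 on the log2 scale. The median over all genes was -0.000633. Rrm2, which fell with age as Mki67 did, averaged 1.25 ± 0.288 CPM in NLGF and 1.25 ± 0.184 CPM in WT. The 11 genes that were too low to be tested at week 24, Cdk1, Ccnb1, Ccnb2, Aurkb, Birc5, Bub1, Ttk, Ube2c, Ndc80, Kif20a and Kif23, had means between 0.131 and 0.389 CPM in NLGF.

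Microglia markers were also higher in NLGF at week 24. Of 14 markers of microglia, the immune cells of the brain, 11 were higher in NLGF and 0 lower, with sums of 471 to 600 CPM in NLGF and 376 to 450 CPM in WT. Of 10 markers of plaque-associated microglia 7 were higher, with sums of 175 to 226 CPM in NLGF and 120 to 168 CPM in WT. None of the 24 was at 0 in a library of week 24. Of the 12 oligodendrocyte precursor markers, 11 immature neuron markers and 7 tested stem cell markers, 0 were called at week 24 (edgeR, with 0, 0 and 1 at an unadjusted p under 0.05). The oligodendrocyte precursor sums were 417 to 563 CPM in NLGF and 436 to 539 CPM in WT. Gfap, an astrocyte gene, held 380 to 681 CPM in NLGF and 195 to 370 CPM in WT, without overlap. The sums of 8 astrocyte markers overlapped, at 7151 to 9096 CPM in NLGF and 7312 to 8351 CPM in WT. Endothelial sums did too, at 164 to 201 CPM in NLGF and 172 to 211 CPM in WT. Of the other cell cycle genes, 0 of 47 tested replication genes and 0 of 38 tested mitosis genes were called, with 2 each at an unadjusted p under 0.05. Of the G1 regulators, Cdk6 was called higher, with a mean of 5.54 ± 1.05 CPM in the NLGF libraries and of 3.79 ± 0.583 CPM in WT ones (log2 fold change 0.55 ± 0.11, adjusted p = 0.0154). The part of microglia or astrocytes in the Mki67 difference was not tested.

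At week 8, 0 of 32 tested genes were called in edgeR's test, as were 0% of all genes. At an unadjusted p under 0.05 stood Kif11, with 2.02 ± 0.441 CPM across NLGF libraries and 1.58 ± 0.476 CPM across WT libraries (log2 fold change 0.34 ± 0.16, adjusted p = 0.633); 7.83% of all genes reached that level. Mki67 averaged 4.92 ± 0.863 CPM in NLGF libraries and 4.76 ± 1.40 CPM in WT libraries. Top2a averaged 2.76 ± 0.822 CPM in NLGF libraries and 2.66 ± 0.759 CPM in WT libraries.

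At week 3, 2 of 40 genes were lower in NLGF and 0 higher, where 2.11% of all genes were called lower and 1.67% higher. Gmnn had 0.670, 0.868 and 1.15 CPM in NLGF, against 0.979, 1.42 and 2.18 CPM in WT, and 8 of 10 NLGF libraries lay below the lowest WT library (log2 fold change -0.75 ± 0.16, adjusted p = 0.0182). Tpx2 had 2.06, 2.86 and 3.71 CPM in NLGF, against 2.99, 3.59 and 5.13 CPM in WT (log2 fold change -0.47 ± 0.13, adjusted p = 0.0433). The ranges of both genes overlapped. The authors' deposited table lists both as lower, with log2 fold changes of -0.57 for Gmnn and -0.26 for Tpx2. It also lists Mcm5 at -0.17 and Pcna at -0.13, but with the authors' adjusted p of 0.0539 and 0.0593, above 0.05. The deposited fold changes come from the authors' own fit, and their sizes need not match those given here. Tpx2 lost its call, with adjusted p of up to 0.0872, in 13 of the 20 fits that left out 1 library: each of the 7 deep NLGF libraries, WT females 1, 2, 3 and 5, and WT males 2 and 5. Gmnn kept its call in all 20. Another 7 genes were below an unadjusted p of 0.05, all with negative fold changes: Ccnd1 (-0.15), Mcm5 (-0.26), Plk1 (-0.32), Pcna (-0.17), Cenpf (-0.31), Bub1b (-0.31) and Mcm2 (-0.19). In either direction, 22% of all genes tested were below that level. The 2 called genes and these 7 together are near the same share of the 40. No share by direction is given for all genes.

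The week 3 comparison was repeated with the 3 NLGF libraries of lower depth, females 2 and 3 and male 1, against the 10 WT libraries. In edgeR's test 0 of 40 genes were called, as were 0% of all 17187 genes, and 5 genes were below an unadjusted p of 0.05, as were 11.4% of all genes. The log2 fold change of Gmnn was -0.84 ± 0.28 (adjusted p = 0.339), larger than with all 10 libraries, and these 3 libraries held 0.670, 0.869 and 1.08 CPM. The other 4 genes below that unadjusted p had fold changes of both signs: Bub1b -0.63 ± 0.21, Pcna -0.28 ± 0.12, Mcm6 0.31 ± 0.11 and Tyms 0.44 ± 0.21. With all 10 libraries the values were -0.04 for Mcm6 and -0.13 for Tyms. Mcm6 averaged 17.4 CPM in these 3 NLGF libraries and 13 CPM in the 7 deep ones, against 14.8 CPM in WT. That of Tpx2 was -0.33 ± 0.21, and Mcm2 and Mcm5 changed sign too, to 0.05 ± 0.12 and 0.07 ± 0.14. NLGF male 1, among these 3, held the highest Mcm2, Mcm6 and Tyms levels of the set, at 9.18, 20.5 and 4.12 CPM. Depth and genotype cannot be told apart for the 7 deep libraries. These 7 also stood apart in a level scaled to depth. Bc1, a gene outside the 40, held 1738 to 5727 CPM in them. It held 2.27 to 16.2 CPM in the 3 other NLGF libraries and 4.49 to 59.5 CPM in WT week 3. The cause was not tested.

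**Figure D5:**
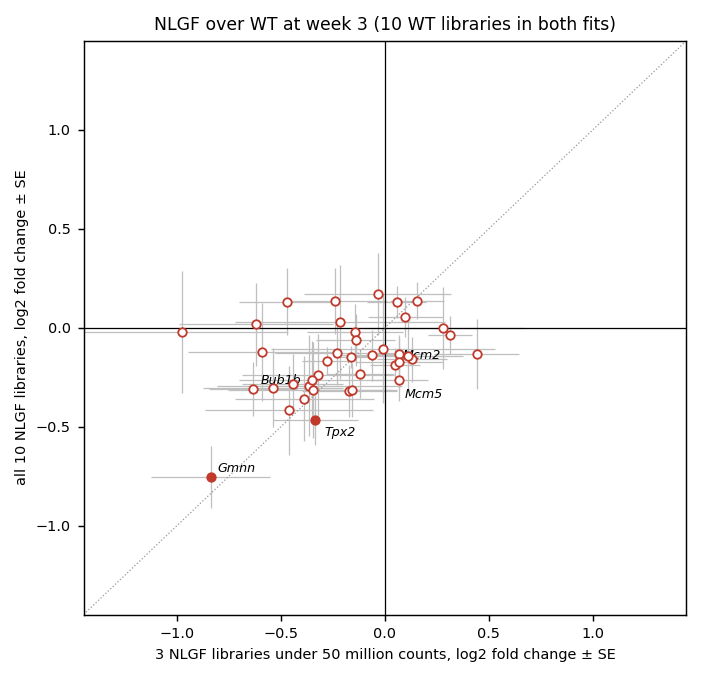
Log2 fold change of each gene for NLGF over WT at week 3, from the 3 NLGF libraries of lower depth (horizontal) and from all 10 (vertical), with standard errors. Filled points passed the test with all 10: Gmnn lies below -0.7 on both axes, and Mcm2 and Mcm5 lie right of 0 and below it.

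The third comparison followed the NLGF mice with age. At week 8, 9 of 38 tested genes were lower than at week 3, where 5.51% of all genes were called lower, and 1 was higher, where 4.9% were called higher. Mki67 had 3.50, 4.74 and 6.69 CPM at week 8, against 4.85, 8.63 and 10.8 CPM at week 3 (log2 fold change -0.81 ± 0.13, adjusted p = 0.000107). Top2a (-0.85), Cenpf (-0.60), Ccna2 (-0.58), Plk1 (-0.58), Ube2c (-0.89), Rrm2 (-0.50), Cdc20 (-0.68) and Ccnd2 (-0.40) fell too. Ube2c was too low for the genotype comparisons at weeks 8 and 24 and for the WT age comparisons. It therefore carries the filter limit given above, which leaves little room for any call but lower. Cdc20 lost its call in 20 of the 30 fits that left out 1 library, Rrm2 in 12, Ube2c in 8, Ccna2 in 6 and Plk1 in 5, with adjusted p of up to 0.114. Mki67, Top2a, Cenpf and Ccnd2 kept theirs in all 30. Gmnn was the gene that rose, with 0.755, 1.26 and 1.78 CPM at week 8, against 0.670, 0.868 and 1.15 CPM at week 3 (log2 fold change 0.53 ± 0.15, adjusted p = 0.0242). Gmnn lost its call in 3 of the 30. Without the 7 deep libraries 5 of 40 tested genes fell, Mki67, Top2a, Ccnd2, Cenpf and Tyms, and 0 rose. Of all genes, 14.6% were called in either direction, and the 5 of 40 are not above that share. The log2 fold change of Gmnn was 0.58 ± 0.27 (adjusted p = 0.148). Ube2c, a ubiquitin-conjugating enzyme of the anaphase-promoting complex, then changed sign, to 0.11 ± 0.42. At week 24, 1 of 38 genes was lower than at week 8 and 0 were higher, where 0.541% of all genes were called lower and 1.36% higher. It was Cenpf, with 1.15, 1.57 and 1.98 CPM at week 24, against 1.35, 2.26 and 3.95 CPM at week 8 (log2 fold change -0.59 ± 0.15, adjusted p = 0.0328). It lost the call in 8 of 30 fits that left out 1 library, NLGF week 24 females 2 and 5 and males 2, 3 and 5 or week 8 females 1 and 5 and male 5, with adjusted p of up to 0.0954. Top2a averaged 4.95, 2.76 and 1.85 CPM and Mki67 8.57, 4.92 and 3.93 CPM at weeks 3, 8 and 24 in NLGF.

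The last comparison tested whether the genotype effect itself differs between weeks, in 1 model of all 60 libraries. In edgeR's test 0 of 40 genes were called for week 8 minus week 3, for week 24 minus week 8 or for week 24 minus week 3, with 4, 3 and 8 genes at an unadjusted p under 0.05. Over all genes, 0.18%, 0.31% and 1.15% were called in either direction, and 7.26%, 3.85% and 13.5% stood at that unadjusted p. DESeq2's Wald test called 0, 0 and 2. The 2 were Mki67 and Top2a for week 24 minus week 3, with differences in log2 fold change of 0.71 ± 0.20 (edgeR adjusted p = 0.0515) and 0.78 ± 0.22 (adjusted p = 0.0581). The difference for Mki67 between week 24 and week 8 was 0.53 ± 0.20 (adjusted p = 0.848). The contrasts of week 8 and of week 24 with week 3 use the deep NLGF libraries. Without them edgeR's test called 0 of 40 genes in either, as it did 0% and 0.0799% of all genes. At an unadjusted p under 0.05 stood 4 and 9 genes, where 11.5% and 11.7% of all genes did. For week 24 minus week 3 the differences were then 0.63 for Mki67 (adjusted p = 0.338) and 0.66 for Top2a (adjusted p = 0.366). The edgeR result for Mki67 between week 24 and week 3 lay at the threshold. It passed in 16 of the 60 fits that left out 1 library and in 3 other edgeR fits: with the filter of 1 CPM (adjusted p = 0.0451), with a replicate block (0.0157) and without the library labelled NLGF week 3 male 2 (0.0477).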

How the data were processed

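RNA-seq of total RNA after ribosomal RNA depletion, per the labels' protocols, gave 60 libraries. The authors deposited raw read counts per gene symbol; the submitters' processing notes name FastQC, STAR, edgeR, DESeq2 and mm10. For the read counter, annotation and strand, nothing is given in the sources used here, so reads of overlapping or antisense genes cannot be told apart. The authors' deposited table of NLGF against WT lists genes up to an adjusted p of 0.06, with, per the file headers, a log2 fold change, its standard error (recorded here as a score), a p-value and a mean normalised signal.

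From the counts, genes were filtered (filterByExpr, minimum count 10) and scaled by TMM. They were tested with edgeR's robust quasi-likelihood test (edgeR 4.0.16, R 4.3.3) with sex as a covariate, which tests each gene across 20, 30 or 60 libraries. P-values were adjusted by Benjamini-Hochberg over all genes tested, with a threshold of 0.05. A standard error is the log2 fold change over the root of F. The procedure was tested on simulated data. Alternatives were DESeq2 1.42.0, its size factors, other filters, no sex term, a replicate block, all 60 libraries in 1 fit and left-out libraries. The members and gene lists were chosen with earlier results of these data known. Fold changes are printed for members called, or at an unadjusted p under 0.05, in a genotype comparison, for the largest age changes, and for up to 4 genes of each other list by p. Every column of the count table was used. Means and tests are limited by counting error in genes under 1 CPM.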

Additional observations from a re-analysis of the deposited data

Results flagged for a closer look

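Of the 240 levels, 40 genes in 6 sets of 10 libraries, 25 had a library that was the highest or lowest of its set by a gap, relative to the range of the set, above Dixon's critical value for 10 samples. Chance marks about 1 in 20 sets.

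NLGF week 3 male 1, 1 of the 3 NLGF libraries of that week with lower depth, held 7 of the 25. It was highest for Mcm2 (9.18 CPM, next library 7.01), Mcm3 (6.29, next 4.44), Mcm6 (20.5, next 16.1), Tyms (4.12, next 2.85), Aurkb (1.60, next 0.762) and Cdc20 (2.47, next 1.52). It was lowest for Aurka (1.44 CPM, next 1.86). The library labelled NLGF week 3 male 2, where counts of Xist and Ddx3y go against the sex given, was highest for Kif23 (1.38 CPM, next 0.876).

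WT week 8 female 1 was highest for Mcm2 (10.2 CPM, next 7.16), Mcm6 (21.6, next 15.5), Plk1 (2.07, next 1.12) and Cdc20 (1.79, next 0.989). NLGF week 8 female 5 was highest for Ccna2 (1.77 CPM, next 1.13), Mcm7 (12.9, next 10.6) and Top2a (4.95, next 2.91). Its oligodendrocyte precursor markers summed to 937 CPM, against 474 to 613 CPM in the other 9 NLGF week 8 libraries, and the part of these cells in the 3 levels was not tested. NLGF week 24 female 3 was highest for Mcm2 (8.4 CPM, next 6.16) and Mcm4 (14.4, next 11.7), and its choroid plexus markers summed to 11048 CPM, the part of which was not tested.

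Single libraries stood apart for 1 or 2 genes each. They were NLGF week 8 female 1 for Ccnb2 (0.880 CPM, next 0.452), NLGF week 8 female 3 for Ttk (0.689, next 0.454) and NLGF week 8 male 2 for Birc5 (0.582, next 0.373). In WT they were week 3 male 1 for Ccna2 (2.72 CPM, next 1.71), week 3 female 1 for Cenpf (6.69, next 5.18), week 3 female 3 for Plk1 (1.56, next 1.34) and Anln (45.1, next 32.5), and week 8 male 3 for Ccnd1 (55.2, next 39.1). NLGF week 8 female 1, whose age field reads 3 weeks, held 5.79 CPM of Mki67, within both the 3.50 to 6.69 CPM of the other 9 libraries and the 4.85 to 10.8 CPM of NLGF week 3. It held 0.755 CPM of Gmnn, below the 0.865 to 1.78 CPM of the other 9, where the NLGF week 3 median was 0.868 CPM. Its oligodendrocyte precursor markers summed to 493 CPM.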

How the results depend on the processing

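Of 81 single-gene results, 2550 of 2740 repeats that left out 1 library kept their direction and side of the threshold, 157 lost a call, 33 gained one and 0 reversed. Over the other alternatives the numbers were 505, 37, 8 and 3 of 553. The 3 reversals among them came without the 7 deep libraries: Mcm2 at week 3 (0.049 on the log2 scale, NLGF over WT, adjusted p = 0.898), Mcm5 at week 3 (0.067, adjusted p = 0.875) and Ube2c for NLGF week 8 over week 3 (0.11, adjusted p = 0.903). None of the 3 passed the test there, and that fit holds fewer samples.

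Counts of called genes stayed within 1.5 times of the reported count in 65 of 81 repeats with other settings. For NLGF over WT at week 3 the count was 2, and it was 1 without a filter, 1 without the library labelled NLGF week 3 male 2 and 0 without the 7 deep libraries. For WT week 24 over week 3 it was 26, and 17 when at least 1 CPM in 10 libraries was asked, where 26 genes were tested. For NLGF week 8 over week 3 it was 10, and 5 without a filter and 5 without the deep libraries. For NLGF week 24 over week 8 it was 1, and 3 with DESeq2 and 2 without the deep libraries. For the genotype effect of week 24 minus week 3 it was 0, and 2 with DESeq2, 2 with the CPM filter and 1 without the library labelled NLGF week 3 male 2. Beyond the smaller fits and shorter gene lists, the cause was not tested.

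Over all weeks together the replicate numbers were not found to pair the libraries, but at week 24 the correlations were higher. Correlations of deviations had a median of 0.04 over 30 pairs across genotypes (-0.25 to 0.59) and of -0.03 over 60 pairs across weeks. Of the 10 genotype pairs at week 24 the median was 0.21 and 6 were over 0.1; Mki67 stayed called there with the block (adjusted p = 0.0496). With a replicate block the counts were 1 for NLGF over WT at week 3, 2 for WT week 24 over week 8, 5 and 0 for NLGF week 8 over week 3 and week 24 over week 8, and 3 for the genotype effect of week 24 minus week 3.

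Leaving out 1 library gave 1 to 3 called genes for NLGF over WT at week 3 (3 without NLGF male 1), 0 at week 8 and 1 to 2 at week 24 (2 without WT male 4). It gave 8 to 15 for WT week 8 over week 3, 2 to 5 for week 24 over week 8 (2 without WT week 24 female 1 or males 1, 2, 4 or 5, or week 8 female 5 or males 4 or 5) and 25 to 28 for week 24 over week 3. In NLGF it gave 5 to 13 for week 8 over week 3, with 5 or 6 without week 3 female 1 or male 3, or week 8 females 3 or 4 or male 3. For NLGF week 24 over week 8 it gave 0 to 2, and for the genotype effect of week 24 minus week 3 it gave 0 to 4 (4 without NLGF week 3 male 1, 3 without WT week 24 male 4, and 1 or 2 without some others). Depth limits the genes under 1 CPM, of which 11 were not tested at week 24.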
